A study of Mus musculus with 2 samples.

Results

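Liver glycolysis was followed through 8 genes that carry glucose into the hepatocyte and down to pyruvate: Slc2a2, Gpi1, Pfkl, Pfkfb1, Gapdh, Pgk1, Eno1 and Pklr. They were chosen by name, as every non-control array probe annotated with one of these symbols, which gave 18 probes of 39429 on the array and 8 gene names of 31042. RNA from Pnpla8-/- livers and from wild-type (WT) livers, both of strain C57BL/6N, was measured on 2 Agilent arrays in a single colour, 1 for each genotype. The knockout lacks Pnpla8, a phospholipase of intracellular membranes. Each array held liver RNA mixed in equal amounts from 5 animals, aged 8 weeks by the series text and 6 weeks by the sample labels. How the allele was made, the animals' sex and their feeding state are not stated in the sources used here. Since each genotype is 1 pool on 1 array, no difference below has a replicate check, no test was possible, and genotype, pool and array cannot be told apart.

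Glucose enters hepatocytes by facilitated diffusion through GLUT2, the product of Slc2a2, and is trapped there as glucose 6-phosphate. Phosphofructokinase and pyruvate kinase are the later control points of the pathway, set in liver by fructose 2,6-bisphosphate, by phosphorylation and, for the liver pyruvate kinase gene Pklr, by transcription that follows carbohydrate intake and insulin. The steps between them run close to equilibrium and serve gluconeogenesis in the reverse direction.

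The sequences of the probes matter here, since several glycolytic genes have many near-identical copies in the mouse genome. The single Pklr probe, A_51_P176042, was designed at base 1636 of the transcript and is given no genome position in the array file. It is shown because the lowest ratio of the 8 genes rests on it alone.
A_51_P176042: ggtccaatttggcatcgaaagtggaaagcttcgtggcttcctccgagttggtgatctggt

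The 3 Gpi1 probes overlap on the same transcript and share most of their letters, so they are not independent measurements. In the 30-base windows shown, capitals mark the 2 positions at which they differ. The array file, in mouse build mm9, places the first at chr7:34987173-34987232 and the next at chr7:34987178-34987237, both on the chromosome of Gpi1, but the last at chr8:5641211-5641270.
A_55_P1992208: tgttgttTtgacctGtatttcacaccccag
A_55_P2022434: tgttgttCtgacctGtatttcacaccccag
A_55_P2030433: tgttgttCtgacctTtatttcacaccccag

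The Gapdh probes show the same in stronger form. None of the 9 was placed on chromosome 6, where Gapdh lies. They were spread over 7 other chromosomes in mm9, and 7 of the 9 also list the accession of a non-coding transcript. In windows of the 4 probes that share a stretch of sequence, capitals mark the 4 positions that differ. The 2 middle windows are identical, although the file places these probes on chromosomes 7 and 8.
A_55_P2081133: tCcctaTtctTttgaataccatcaataaaT
A_55_P2097548: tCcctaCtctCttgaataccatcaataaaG
A_55_P2106424: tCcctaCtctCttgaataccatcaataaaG
A_55_P2186027: tAcctaCtctCttgaataccatcaataaaG

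The Eno1 probe was placed on chromosome 2, while the gene lies on chromosome 4. The signals of Gapdh, Eno1 and Gpi1 may therefore include RNA from near-identical copies. For the remaining genes with a position, the placement matched: Slc2a2 at chr3:28627016-28627075, Pfkl at chr10:77450926-77450985, Pfkfb1 at chrX:147078320-147078379 and Pgk1 at chrX:103398640-103398699. In all, 6 of the 18 probes were placed on the chromosome of their own gene.

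Of 43020 non-control spots, 28212 (65.6%) on the knockout array and 30141 (70.1%) on the WT array passed the software's call of well above background. Pnpla8 checked the labels: its probe read 4.45 in the knockout pool, not well above background, and 144.5 in the WT pool, at least 6.81-fold lower in the knockout against the lowest signal well above background there (at least 2.14-fold with the normexp background). Whether that probe lies in the deleted part is not stated in the sources. Values below are processed signals (background-subtracted intensity), and a ratio is the log2 of knockout over WT after each array was scaled to its own 75th percentile, 1018 in the knockout and 1207 in the WT. The median ratio of all 19951 measured genes was 0.04. The log2 ratios of different probes for 1 gene had a median SD of 0.10 (4286 genes), and the scanner software's own error of about 10% per signal gave each ratio an error of 0.20. Both are technical and say nothing of the spread between animals.

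All 18 probes were well above background on both arrays and none was saturated, so every one of the 8 genes was measured. No gene reached 2-fold in either direction, a size passed by 1.29% of all measured genes upward and by 1.85% downward. At 1.5-fold 1 gene was lower, Pklr, and 0 were higher, beside 5.93% of all genes lower and 4.42% higher. Of the 8 genes, 7 had a mean scaled signal above the 75th percentile, and among the 7353 genes that bright, 2.95% were at least 1.5-fold lower and 4.62% higher, with 0.884% at least 2-fold lower and 1.33% higher. The count of 1 in 8 is too small to be read against these shares. The 8 ratios had a median of 0.25, with 6 above 0 and 2 below. In size, 6 of them were larger than their scanner error. No share of all genes was computed for either count. Without scaling 4 were above 0, and Slc2a2 (0.18), Gapdh (0.13) and Pgk1 (0.12) also lay inside that error.

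**Figure D1:**
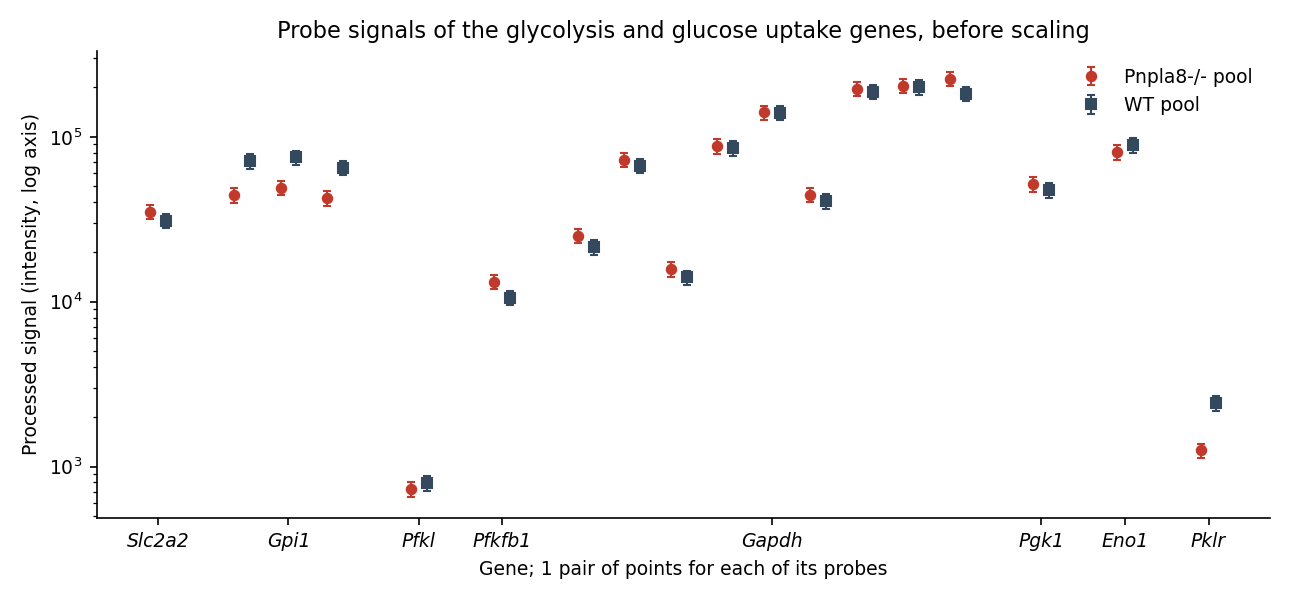
Processed signal of each probe (log axis), with the Pnpla8-/- pool as red circles and the WT pool as dark squares, 1 array each; error bars are the scanner software's error, about 10% of the signal. The pools lie close together at most probes, and the knockout pool lies clearly below the WT pool at the 3 Gpi1 probes and at the Pklr probe.

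Slc2a2 encodes GLUT2, the main glucose carrier of the hepatocyte's sinusoidal membrane. Its probe read 35075 in the knockout pool and 30940 in the WT pool. The knockout signal was the higher even before scaling, at a ratio of 0.18 that was inside its scanner error. After scaling the ratio was 0.43, or 1.34-fold. Of all measured genes, 8.29% had a higher ratio.

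Gpi1 encodes glucose 6-phosphate isomerase, which turns glucose 6-phosphate into fructose 6-phosphate. Its 3 probes read 44349, 49123 and 42373 in the knockout pool, against 71261, 74962 and 64854 in the WT pool. The knockout signal was the lower at each of the 3, at ratios of -0.44, -0.36 and -0.37. The gene's ratio was -0.37, 1.29-fold lower in the knockout, and the SD between its probes was 0.04. The ratio of the probe placed on chromosome 8 lay between those of the other two.

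Pfkl, the liver subunit of phosphofructokinase-1, read 730 in the knockout pool and 794 in the WT pool. The raw signal was lower and the scaled ratio, 0.12, was above 0 and inside its error. Pfkfb1 encodes the liver form of the bifunctional enzyme that makes and breaks fructose 2,6-bisphosphate, the activator of phosphofructokinase-1. It read 13228 in the knockout pool and 10579 in the WT pool, the highest ratio of the 8 genes at 0.57. This was 1.48-fold, short of 1.5-fold by 0.017 on the log2 scale. Of all measured genes, 4.63% had a higher ratio.

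Gapdh, glyceraldehyde 3-phosphate dehydrogenase, catalyses the oxidative step of the pathway. Its 9 probes read between 15738 and 224702 in the knockout pool and between 14013 and 200330 in the WT pool. All 9 probes had the higher signal in the knockout pool, before as well as after scaling. The ratios ran from 0.25, at a probe reading 140374 in the knockout and 139901 in the WT, to 0.55, at one reading 224702 in the knockout and 182100 in the WT. The gene's ratio was their median, 0.37 or 1.29-fold, with an SD between probes of 0.10. Without scaling the gene's ratio was 0.13, inside its scanner error. All 9 read the same labelled RNA and some share sequence, so they are not separate observations. Gapdh is widely used as a reference gene, and 10 other genes with that use, picked after the Gapdh values were seen, had ratios from -0.40 for Actb to 0.25 for Ywhaz, with a median of 0.13. None of the 10 reached 1.5-fold. Without scaling their median was -0.12 and 1 was at least 1.5-fold lower, Actb (-0.65), as it was with quantile scaling.

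Pgk1, phosphoglycerate kinase, makes the first ATP of the pathway. It read 51646 in the knockout pool and 47443 in the WT pool, a ratio of 0.37. Gapdh, whose product it uses, had the same ratio to that precision. Eno1, enolase 1, makes phosphoenolpyruvate. It read 80523 in the knockout pool and 88929 in the WT pool, a ratio of 0.10 that was inside its error.

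Pklr, the liver and red cell pyruvate kinase, catalyses the last step and is the pathway's carbohydrate-responsive gene. Its probe read 1252 in the knockout pool and 2429 in the WT pool. The ratio was -0.71, 1.64-fold lower in the knockout, and 4.29% of all measured genes had a lower one. The other end of the pathway, Slc2a2, lay on the opposite side of 0.

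**Figure D2:**
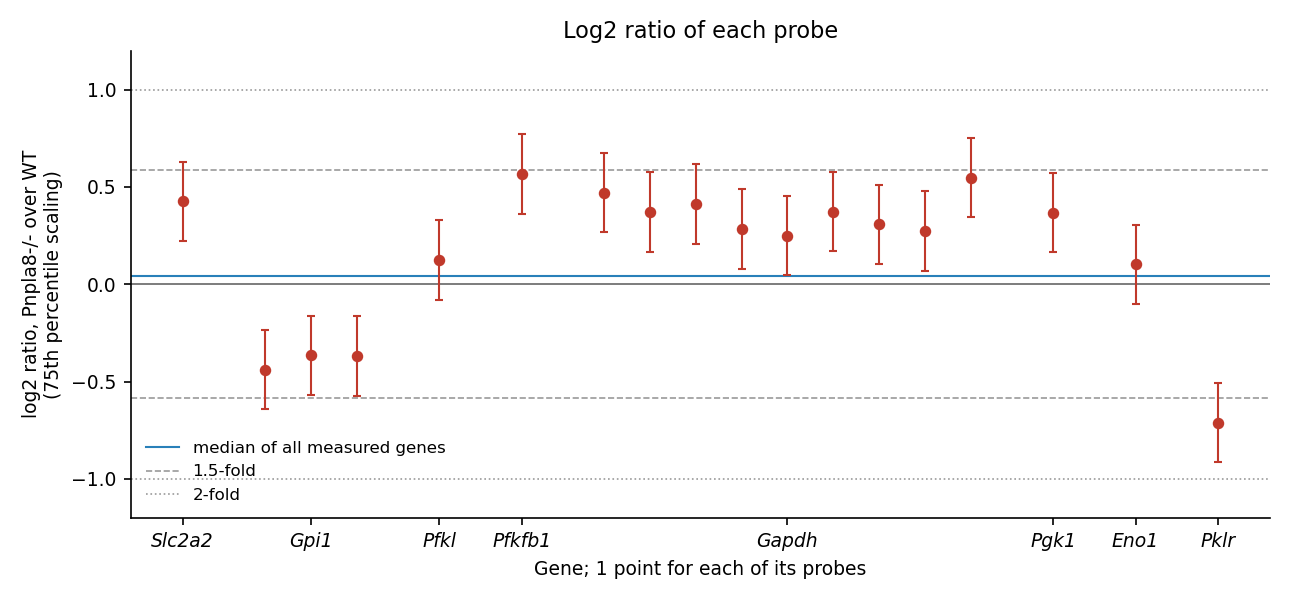
Log2 ratio of the Pnpla8-/- pool over the WT pool for each probe, in pathway order; bars are the scanner error of the ratio, the blue line is the median of all measured genes (0.04), and dashed and dotted lines mark 1.5-fold and 2-fold. The 3 Gpi1 probes and the Pklr probe lie below 0, the other 14 probes lie above it, and only Pklr passes 1.5-fold.

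Scaling set the zero of these ratios. Without any scaling the median of all genes was -0.21, and the 8 genes had a median of 0.00096. Pfkl was then at -0.12 and Eno1 at -0.14, and with scaling to spike-in controls they were at -0.04 and -0.06. Eno1 was also below 0 with quantile scaling (-0.09) and with loess scaling (-0.04). The other 6 genes kept their sign in all 14 settings, over ranges of 0.18 to 0.49 for Slc2a2, -0.61 to -0.31 for Gpi1, 0.32 to 0.63 for Pfkfb1, 0.13 to 0.43 for Gapdh, 0.12 to 0.43 for Pgk1 and -0.96 to -0.65 for Pklr. Not all 14 could move each gene. Slc2a2, Pfkfb1, Pgk1 and Pklr rest on a single probe, so the probe summaries, spot marks and filters left their ratios unchanged. The deposited table all but repeated them, which leaves the other scalings and the normexp background.

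**Figure D3:**
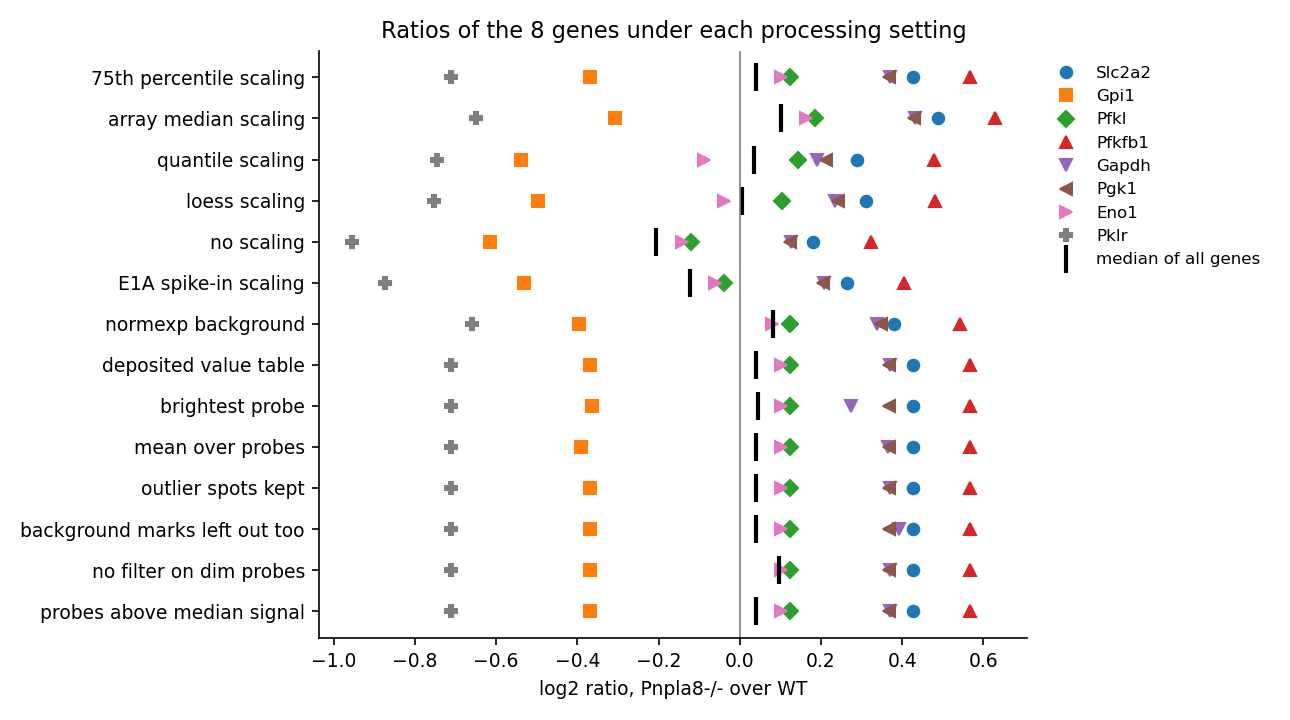
Log2 ratio of the Pnpla8-/- pool over the WT pool for the 8 genes (coloured symbols) and the median of all genes (black bar), 1 line for each processing setting. Pklr and Gpi1 lie left of 0 in every setting, Pfkfb1, Slc2a2, Gapdh and Pgk1 right of it, and Pfkl and Eno1 cross it under some scalings.

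The promoter of Pklr holds the letters of a carbohydrate response element, the paired half-sites that ChREBP (Mlxipl) binds, which is why it is shown. The 250 bases before the start, from RefSeq in build GRCm38.p6, lie at chr3:89136373-89136622 on the plus strand. Capitals mark the match, 170 to 154 bases before the start.
Pklr promoter: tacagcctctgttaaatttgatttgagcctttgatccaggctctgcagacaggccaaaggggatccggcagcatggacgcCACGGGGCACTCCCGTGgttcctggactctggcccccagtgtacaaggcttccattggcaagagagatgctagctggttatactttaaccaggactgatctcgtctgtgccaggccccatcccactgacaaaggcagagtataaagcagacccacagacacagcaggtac

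The motif searched, on both strands, was the half-site cacgng, then any 5 bases, then the half-site cncgtg. It stood in 13 of 32851 promoter windows of this length (0.0396%) and, among the 14 windows of the 8 genes, in 1 of the 2 of Pklr alone. The E-box cacgtg, which can overlap either half-site of that motif, stood in 6.02% of all windows and in 0 of the 14. A match is a description of letters, and binding was not measured.

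The transcription factors that act on glycolytic genes were measured beside them. Of 16, 1 was at least 2-fold higher, Ppargc1a (1.08), a coactivator of gluconeogenic genes, and 3 were at least 1.5-fold higher, the others being Klf15 (0.85) and Foxo1 (0.61), both active in fasted liver. None was at least 1.5-fold lower, and the median was 0.05. Without scaling, and with quantile, loess and spike-in scaling, 1 was at least 1.5-fold lower, Srebf1. Ppargc1a fell short of 2-fold without scaling (0.84), with the spike-in controls and with the normexp background. Foxo1 fell short of 1.5-fold under 4 of the scalings. Srebf1, which encodes the insulin-driven SREBP-1c, had -0.58. It read 2015 in the knockout pool and 3573 in the WT pool. ChREBP's own gene, Mlxipl, outside the naming rule, had -0.12, with probes at -0.32 and 0.09.

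Lipogenic genes, which like Pklr are targets of ChREBP or SREBP-1c, were mostly lower. Of 14, 8 were at least 1.5-fold lower and 0 at least 1.5-fold higher, with 3 past 2-fold (6 without scaling), and the median was -0.66. These 3 were Pnpla3 (-2.98), the pentose phosphate enzyme G6pdx (-1.78) and fatty acid synthase Fasn (-1.30), followed by the elongase Elovl6 (-0.97). Pnpla3 was dim in the knockout pool, at 37.1 against 384 in the WT pool, with probes at -3.71 and -2.26. Its ratio ran from -3.71 to -1.76 over the 13 settings that measured it. In the same list 3 genes were above 0, all outside the naming rule. They were Txnip (0.35), another carbohydrate-responsive gene, and the bright Scd1 (0.18) and Thrsp (0.04). Without scaling Scd1 had -0.07 and Thrsp -0.21. The list's median stayed between -0.91 and -0.56 over the 14 settings, and Pklr between -0.96 and -0.65.

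The remaining glycolytic enzymes gave 20 measured genes of 22. None was higher at either fold, 2 were at least 2-fold lower, 4 at least 1.5-fold lower, and the median was 0.03. The 2 were hexokinases not typical of hepatocytes: Hk2 read 66.3 in the knockout pool and 267 in the WT pool (-1.76), and Hk3, a hexokinase of myeloid cells, read 186 in the knockout and 492 in the WT (-1.16). Pkm, the other pyruvate kinase gene, had -0.70 with probes at -0.74 and -0.66, and Pfkp, the platelet phosphofructokinase, had -0.59. Hk2 stayed past 2-fold in every setting that measured it, while with the normexp background Hk3 had -0.93 and Pfkp -0.17. Tpi1, triosephosphate isomerase, at 0.32, and Pgam1, phosphoglycerate mutase, at 0.27, were within 1.5-fold and are named for their place in the pathway, not by the rule.

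Among 8 regulators 1 was at least 1.5-fold higher and 1 lower, and the median was 0.05. Of the Pfkfb relatives, Pfkfb2, the heart form, had 0.60 and Pfkfb4, the testis form, -0.89, beside 0.57 for Pfkfb1. Pfkfb2 had 0.36 without scaling, and Pfkfb4 had -0.16 without the filter on dim probes. The phosphoglycolate phosphatase Pgp had -0.48.

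Other hexose transporters gave 8 measured genes of 13, with 1 at least 1.5-fold higher, Slc5a2 (0.69), best known as the kidney's sodium-glucose carrier, and 1 lower, Slc2a6 (-0.72, with probes at -1.21 and -0.23). With the normexp background neither passed 1.5-fold, at 0.38 for Slc5a2 and -0.29 for Slc2a6. Slc2a1, the GLUT1 gene, had 0.53 and Slc2a9, a urate carrier, 0.53. A further 3 were well above background on 1 array, of which Slc2a10, outside the naming rule, read 61.8 in the knockout pool and 6.47 in the WT pool, at least 4.98-fold higher, or 2.18-fold with the normexp background. Slc2a3, the GLUT3 gene, read 22.7 in the knockout pool, not well above background, and 43.7 in the WT pool, at least 1.63-fold lower, a bound that shrank to 1.003-fold with the normexp background. Slc5a1 was well above background in the WT pool alone and has no fold.

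Downstream of pyruvate, 22 genes were measured, 3 at least 1.5-fold higher and 3 lower, with a median of 0.10. Without scaling 1 was higher and 4 lower at that fold, and with the normexp background 3 and 0. The alanine transaminases Gpt2 (0.99) and Gpt (0.78), which link pyruvate with alanine, and the pyruvate dehydrogenase kinase Pdk2 (0.75) were higher, though Gpt (0.53) and Pdk2 (0.51) did not reach 1.5-fold without scaling. The lower 3 were Pdk3, a relative of Pdk2, at -0.85, and, outside the naming rule and just past 1.5-fold, the lactate carrier Slc16a3 and the pyruvate dehydrogenase phosphatase Pdp1, both at -0.59. Lactate dehydrogenase Ldha, outside the naming rule, had -0.49. Gluconeogenesis enzymes, which run the shared steps backward, gave 7 measured genes of 8 with a median of 0.16. Pck1, phosphoenolpyruvate carboxykinase, read 142975 in the knockout pool and 107739 in the WT pool (0.65) and alone passed 1.5-fold, though not without scaling (0.41) or under 3 other scalings. Fbp1 (0.22), Pcx (0.16) and G6pc (0.16) did not.

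Over all 77 measured genes of these related lists outside the 8, 0 were at least 2-fold higher and 3 lower, 7 were at least 1.5-fold higher and 10 lower, and the median was 0.09. Without scaling 1 was at least 1.5-fold higher and 15 lower, with a median of -0.15. With array median scaling 11 were higher and 7 lower at that fold, with the spike-in controls 4 and 13, and with the normexp background 5 and 5. The 8 genes themselves had 0 past 2-fold, 1 lower past 1.5-fold and a median of 0.25.

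**Figure D4:**
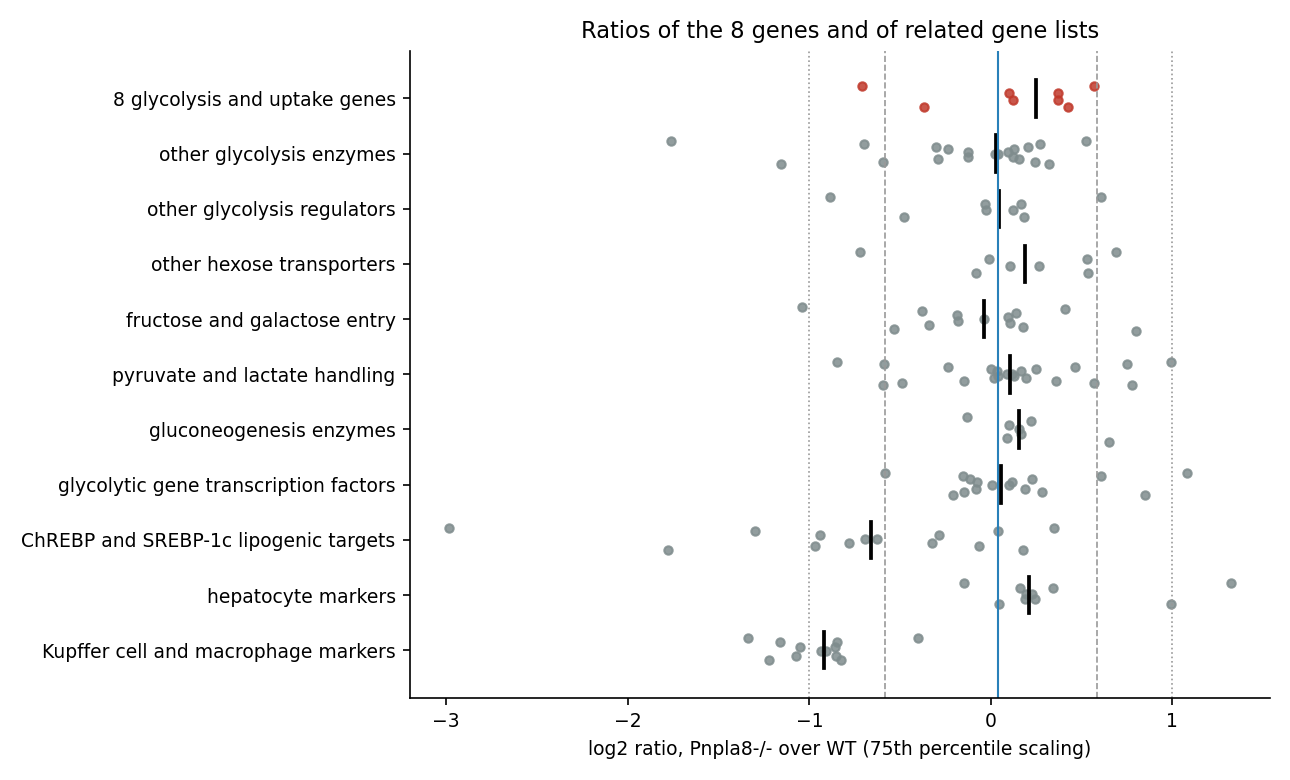
Log2 ratio of the Pnpla8-/- pool over the WT pool for each measured gene (points) with each list's median (black bar); the blue line is the median of all measured genes (0.04), and dashed and dotted lines mark 1.5-fold and 2-fold. The 8 genes (red) have a median of 0.25, the lipogenic targets -0.66 and the Kupffer cell and macrophage markers -0.92.

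In whole liver, fewer cells of a type and less RNA per cell cannot be told apart, and cell type markers differed between the pools. All 10 hepatocyte markers were measured, 9 above 0, with a median of 0.21 (-0.03 without scaling), beside 0.25 (0.00096) for the 8 genes. The summed scaled signal of these markers was 1441 in the knockout pool and 1186 in the WT pool. Scaling enters such sums, as it divided signals by 1018 in the knockout and by 1207 in the WT. Albumin itself read 392982 in the knockout pool and 393769 in the WT pool. All 12 Kupffer cell and macrophage markers were below 0, from -1.34 to -0.40, and their sum was 44.5 in the knockout pool and 92.4 in the WT pool, none of them at background. The median was -0.85 for 9 lymphocyte markers, -0.65 for 5 neutrophil markers, 0.01 for 5 erythroid, -0.23 for 8 endothelial, -0.36 for 8 stellate and -0.11 for 8 cholangiocyte markers, and -0.55 for 2 measured markers of muscle, fat or pancreas. With the normexp background the median was -0.39 for lymphocyte, -0.02 for neutrophil, 0.09 for cholangiocyte and -0.08 for the muscle, fat and pancreas markers, against -0.88 for the Kupffer cell and macrophage markers. The part of cell composition in the ratios of the 8 genes, of Hk3 or of Pkm was not tested.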

How the data were processed

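Per the labels' protocols, amplification and Cy3 labelling started from 200 ng of RNA for each array. The submitters' processing notes name Agilent Feature Extraction 11.5.1.1 as the authors' software. The deposited scanner files hold linear intensity, and the processed signal used here is background-subtracted, per the file headers. The deposited value table also holds intensity: a column equals the processed signal over 1 fixed number, 1019 in the knockout and 1207 in the WT, with column medians of 0.0763 and 0.0800. Its scale is linear, genes are not centred, and how its constants were chosen is not stated in the sources used here. There were 0 other columns of sample values.

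The log2 of each deposited processed signal was taken and scaled by subtracting the 75th percentile of that array (control spots left out). Spots with an outlier mark of their own (170 on the knockout array, 119 on the WT array) were left out. Spots marked only for their local background were kept, a choice made after the data were seen, because such marks fell on 4.83% of the brightest 10% of spots on the knockout array and 5.32% on the WT array, against 1.39% and 1.42% of the rest; 3 Gapdh probes carried one. Spots of a probe were averaged, and a gene's ratio is the median over its probes well above background on both arrays. A gene above it on 1 array has a bound. Of 39429 probes, 28314 were named by accession and 2376 by symbol through RefSeq (GRCm38.p6), while 8739 keep the array's own name. Of the 8 genes, all 8 matched the RefSeq promoter table.

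The 8 genes and all gene lists were chosen with earlier results of these data known. Named genes are all 8, Pnpla8, and up to 4 measured genes of each pathway list with the largest absolute ratio; others are said to lie outside that rule, and some genes it selects are not reported here. No likeness of pattern to other genes was computed, since 2 arrays give 1 ratio per gene. With 1 pool per genotype no test was made; genes were counted at 2-fold and 1.5-fold. The 12 alternatives were 5 other scalings (quantile, array median, 8 spike-in controls, none, loess at span 0.3), normexp background (offset 50), the deposited table, 2 other probe summaries, keeping marked spots, and 2 other filters; leaving out spots with a background mark joined them later, with the data known. The gene summary and the counts at each fold were tested on simulated probe ratios. The scalings, the normexp background and the bounds were not part of that test. Python 3.11.15 with pandas 2.3.3, numpy 2.4.6 and statsmodels 0.14.6, and limma 3.58.1 in R 4.3.3, were used; figures came from matplotlib 3.10.9.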

Additional observations from a re-analysis of the deposited data

How the results depend on the processing

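The median ratio of the 8 genes was 0.25. A move was counted from 0.095, the median SD between probes of a gene, which is not the spread of this median. By that cut it moved under 2 of 13 alternatives, to 0.00096 without scaling and to 0.0835 with the spike-in controls, as all genes shifted with it. At 1.5-fold, 2 of the 8 genes were lower without scaling, where Gpi1 joined Pklr, and 1 was higher with array median scaling, where Pfkfb1 passed. No gene of the 8 reached 2-fold under any of the 13. Over all genes, 258 were at least 2-fold higher and 369 lower. These counts were 116 higher and 759 lower without scaling, 139 and 606 with the spike-in controls, 135 and 128 with the normexp background, 994 and 1235 without the filter on dim probes, and 148 and 229 among probes above the median signal. By its brightest probe Gapdh had a ratio of 0.27. No replicate could be left out. No paired analysis was possible because each genotype has 1 array. One pool per genotype on 1 array each limits every value here, and 6 of the 8 genes rest on 1 probe.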

Other observations

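Fructose and galactose join glycolysis below or beside its first steps, and the genes that bring them in were all measured, 13 of 13. The median ratio was -0.04. At 1.5-fold 1 gene was higher, Pmm1, a phosphomannomutase, which had 0.80 with its 2 probes at 0.70 and 0.89, and the gene at 0.55 without scaling. Tkfc, which phosphorylates the glyceraldehyde made from fructose, read 19226 in the knockout pool and 33046 in the WT pool (-0.54), while ketohexokinase Khk, which opens the fructose route, had 0.11 with both probes and -0.14 without scaling. Pgm1, which links glucose 6-phosphate with glycogen, had 0.41.

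Several glycolytic genes are hypoxia targets in other tissues. Of 12 hypoxia-responsive genes, 1 was at least 1.5-fold higher, Bnip3 (0.61, or 0.36 without scaling), and 1 lower, Ankrd37, which read 206 in the knockout pool and 869 in the WT pool (-1.83). Egln3 had 0.41 and Car9 -0.39, and the median was 0.14, or -0.11 without scaling, where 3 were at least 1.5-fold lower.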
